A study of Mus musculus with 8 samples.

Results

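MC38 tumors treated with a bottlebrush prodrug of R848 with a medium release rate (medium BPD) were compared with saline-treated tumors by single-cell RNA sequencing (scRNA-seq) 24 hours after administration. Both groups were chosen by their treatment labels. This gave 5 of the 8 tumors of the series, 2 with medium BPD and 3 with saline, and 6662 of the 9886 cells that passed quality limits. The limits were over 400 and under 10000 detected genes, under 50000 unique molecular identifiers (UMIs) and no more than 15% mitochondrial UMIs. UMIs were summed per tumor over all kept cells and within 5 classes that were gated on marker genes. Macrophages were cells with at least 5 UMIs of *C1qa*, *C1qb* and *C1qc* together, natural killer (NK) cells had at least 2 of *Ncr1*, *Klre1* and *Klrb1c*, and T cells had at least 2 of *Cd3d*, *Cd3e* and *Cd3g*. Mature dendritic cells (DCs) had at least 3 UMIs of *Ccr7* and 1 of *Fscn1*, and tumor cells had at least 5 of *Mtap* and *Rhox5*.

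MC38 is a colon adenocarcinoma cell line that was derived from C57BL/6 mice, and here it grew under the skin of 8-week-old female mice of that strain. R848 (resiquimod) is a small molecule that activates Toll-like receptors 7 and 8 (TLR7/8), and in medium BPD it was linked by cleavable esters to a bottlebrush polymer carrying poly(ethylene glycol) chains. The saline and medium BPD tumors therefore shared the cell line, the host and the 24-hour time, and they differed in the injected agent. The remaining 3 tumors, given free R848, entered the fits to estimate the spread between tumors, and their values are given beside those of medium BPD where they help. The methods set the dose for imaging and therapy of tumors at the tolerated dose of free R848 but do not name the sequenced tumors, and a polymer without drug was not among the tumors analyzed here. Each tumor came from a separate mouse, and all of them carry 1 cell line. Cells carrying CD45, a surface protein of blood-derived cells, and cells without it were separated and mixed at a fixed ratio, so that their relative numbers were set at loading.

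TLR7/8 sit in the endosomes of macrophages, monocytes and dendritic cells, where they sense single-stranded RNA. They signal through MyD88 to NF-κB, which turns on inflammatory genes, and to IRF7, which turns on type I interferon and, through it, interferon-stimulated genes (ISGs). Serum amyloid A, lipocalin-2 and haptoglobin are acute-phase proteins, made during infection and inflammation mainly by the liver and also by macrophages and neutrophils.

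The 5 tumors held between 5867590 and 12422614 UMIs, and 1222 to 1443 cells per tumor were kept. The gates fix the levels of the genes they use, so the classes were checked against their listed markers that no gate used. In the medium BPD and saline tumors, 6 such macrophage markers summed to 10417 to 14794 CPM (UMIs scaled to the library total) in the macrophage gate and to at most 4101 CPM in any other gate. Likewise 6 mature DC markers summed to 3097 to 6590.4 CPM in their gate and to at most 430.3 CPM elsewhere, 7 T cell markers to 1302 to 2811 CPM and at most 646 CPM, and 5 NK markers to 672 to 921 CPM and at most 279 CPM. The 2 tumor-cell markers left summed to 651 to 1864 CPM in the tumor-cell gate and to at most 1042 CPM elsewhere, the latter in the mature DCs of 1 saline tumor. In the T cell gate the macrophage markers, at 1239 to 4045 CPM, overlapped in level with those of T cells. Saline tumor 2 stood apart, since macrophages made up 78.8% of its cells outside the tumor gate against 37.0% and 33.1% in the other saline tumors. Medium BPD tumor 2 had the lowest correlations of log2 CPM over all cells with the rest of the series, at 0.901 to 0.948. Its correlation with medium BPD tumor 1 was 0.946. Markers of osteoclasts, which are bone-resorbing relatives of macrophages, summed to 7032 CPM over all cells in saline tumor 3 and to 225 and 237 CPM in the other saline tumors. Of all kept cells of the 8 tumors, 59 carried a barcode listed in more than 1 tumor.

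The macrophage gate had the highest number of called genes. Among 10774 genes tested in macrophages, 769 (7.14%) were called by the quasi-likelihood test of edgeR at an adjusted p (Benjamini-Hochberg) under 0.05. Of these, 433 were higher and 336 lower with medium BPD. All cells together gave 65 calls among 13013 genes (0.5%), the mature DC gate 20 of 4534 (0.441%), the tumor-cell gate 18 of 10921 (0.165%), the NK gate 14 of 8991 (0.156%) and the T cell gate 10 of 7499 (0.133%). The classes differ in cell number and depth, so these counts do not rank the size of their responses. The macrophage count depended on single tumors: it was 136 without medium BPD 2, 438 without medium BPD 1, 236 without saline 1, and 402 to 472 without 1 of the free R848 tumors. With only the medium BPD and saline tumors in the fit, 133 macrophage genes were called, 98 of them higher.

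**Figure D1:**
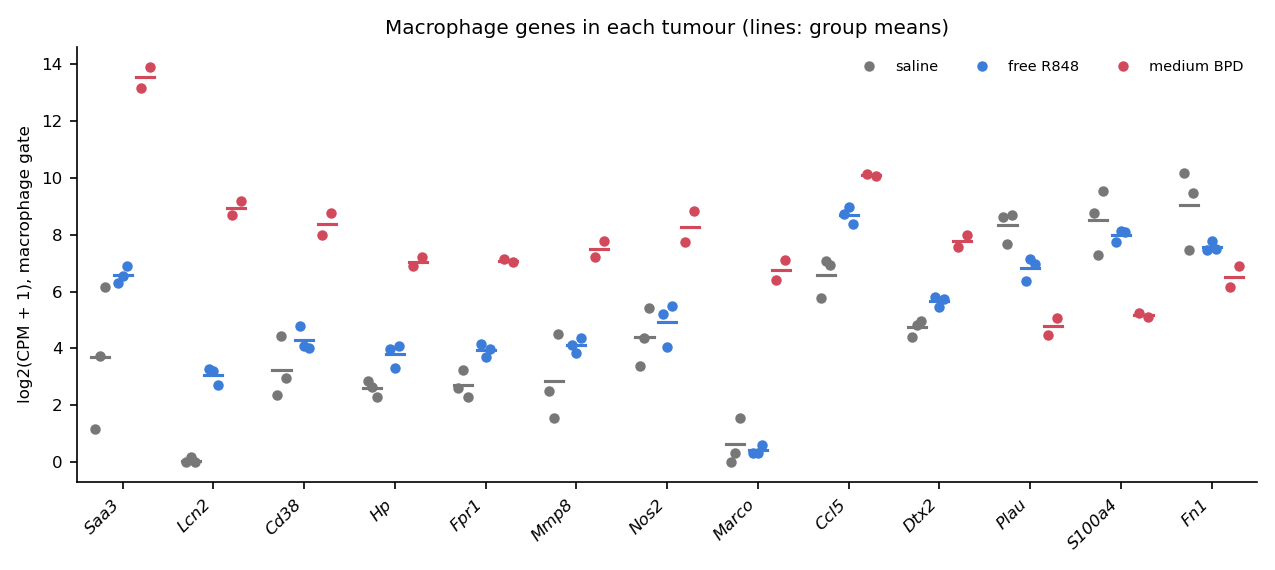
Level of 13 genes in the macrophage gate of each tumor, as log2 of CPM plus 1 on the y axis, with 1 point per tumor and a line at each group mean. For *Saa3*, *Lcn2*, *Cd38*, *Hp*, *Fpr1* and *Marco* both medium BPD tumors lie above every saline and free R848 tumor, and for *Plau* and *S100a4* they lie below.

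Acute-phase and antimicrobial genes were among those with the largest rises. *Saa3* (chromosome 7, 46711998 to 46715700, GRCm38), which encodes serum amyloid A3, stood at 9176 and 15342 CPM in the macrophages of the medium BPD tumors, at 1.26, 12.4 and 69.8 CPM in those of the saline tumors and at 77.9, 92.6 and 118 CPM in those of the free R848 tumors. Every tumor of the medium BPD group was thus far above every other tumor. The log2 fold change over saline was 8.91 ± 1.12 (SE), a 481-fold difference in the fit (edgeR adjusted p = 0.00422), and the adjusted p against free R848 was 0.0204. In the saline tumors the transcript came from 1, 9 and 1 macrophages, whereas 453 of 573 macrophages of medium BPD 1 (79.1%, Wilson 95% interval 75.5 to 82.2%) and 330 of 423 of medium BPD 2 (78.0%, 73.8 to 81.7%) held at least 1 *Saa3* UMI. These intervals cover counting error only. A macrophage of these tumors held a median of 22 and 34 *Saa3* UMIs and up to 868 and 854, and the 10% of cells with the most held 52.1% and 44.6% of all *Saa3* UMIs.

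*Lcn2* (chromosome 2, 32384633 to 32388252), the iron-sequestering protein lipocalin-2, was at or near 0 CPM in saline macrophages. Its level was 414 and 578 CPM with medium BPD, 0, 0.122 and 0 CPM with saline and 8.80, 8.31 and 5.60 CPM with free R848. Saline macrophages held 1 *Lcn2* UMI in all against 3450 with medium BPD, a ratio of 5759 with a 95% counting interval from 1033 to 227520 (edgeR adjusted p = 8.52e-07). It was found in 307 of 573 and 202 of 423 medium BPD macrophages, in 1 of 979 macrophages of saline 2, and in 0 of 459 and 0 of 397 of the other saline tumors, which allows shares of cells with an *Lcn2* UMI of up to 0.654% and 0.756%. *Lcn2* was the 1 gene of the macrophage gate that was also called between free R848 and saline (0.00928% of the genes tested, adjusted p = 0.0081).

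*Hp*, which encodes the hemoglobin-binding protein haptoglobin, had 117 and 149 CPM with medium BPD and 6.32, 5.26 and 3.93 CPM with saline, a log2 fold change of 4.64 ± 0.25 (edgeR adjusted p = 8.99e-05). *Saa1* had no UMI in any saline or free R848 macrophage and 116 UMIs with medium BPD, which is at least 64.5-fold higher when 3 counts over the saline group are taken as the floor (adjusted p = 0.0138). The *Saa1* UMIs came from few cells, 13 of 573 and 16 of 423 macrophages, with up to 28 and 13 UMIs in 1 cell. *Saa1* and *Saa2* are nearly identical in sequence, so reads may be split between them. *Wfdc17*, *Slpi* and *Cp*, which encode a whey acidic protein-type factor, a secreted protease inhibitor and the copper carrier ceruloplasmin, rose by log2 fold changes of 2.09, 2.92 and 2.89, and complement factor B (*Cfb*) by 0.83. Of the 22 genes on the acute-phase and antimicrobial list, 11 passed the filter on low counts, and 8 of these were called higher and 0 lower, against 4.02% of all genes tested called higher. The median log2 fold change of the 11 genes was 2.92, beside -0.02 over all genes tested. With saline, 1 of the 11 had no UMI and 2 had 1 to 3, so these could have passed the filter through the treated tumors. This list and those below were chosen with earlier results of these data known, so their counts beside the share of all genes are a description. The list had 4 calls without medium BPD 2, since *Saa1*, *Cp*, *Slpi* and *Cfb* then lost theirs, and 5 with only the medium BPD and saline tumors in the fit, where 1.03% and 0.942% of all genes were called higher.

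Markers of neutrophils, which also make lipocalin-2 and haptoglobin, moved with these genes. The 9 listed neutrophil markers summed to 249 and 627 CPM in the medium BPD macrophage gates, to 37.8, 34.9 and 56.4 CPM with saline and to 109 to 176 CPM with free R848. *S100a8* and *S100a9*, the most abundant neutrophil proteins, rose by log2 fold changes of 6.20 and 5.86, although *S100a9* was not called without medium BPD 2 or without saline 1. *Retnlg*, *Cxcr2* and *Csf3r*, further neutrophil markers, rose by 5.07, 4.0 and 1.07. *Ly6g*, the defining surface marker of neutrophils, had 0 to 2 UMIs in the macrophage gate of every tumor and so cannot tell the groups apart. *Saa3* was found in 79.1% and 78.0% of their cells against 8.38% and 11.8% for *S100a8*. *Mmp8*, a collagenase on the neutrophil list, had 149 and 221 CPM with medium BPD and 4.74, 1.96 and 21.6 CPM with saline (log2 fold change 4.68 ± 0.66, edgeR adjusted p = 0.0072). The part of neutrophil RNA in the macrophage values was not tested.

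The promoters of *Saa3* and *Lcn2* are shown because both are among the genes with the largest rises, and those of *Isg15* and *Ifit1* because they stand for the ISGs below. Each is the 250 bases before the RefSeq transcription start in GRCm38.p6, written 5′ to 3′ on the gene's strand. Capitals mark matches, on either strand, to TTNNGCAA (a C/EBP-type motif) in *Saa3* and *Lcn2* and to GAAA and a second GAAA with any 2 bases between them (an interferon-stimulated response element, ISRE) in *Isg15* and *Ifit1*, where overlapping matches run together. The ISRE letters also occur once in the *Saa3* window, where they are not in capitals.
*Saa3* (chr7:46715677-46715926, minus strand): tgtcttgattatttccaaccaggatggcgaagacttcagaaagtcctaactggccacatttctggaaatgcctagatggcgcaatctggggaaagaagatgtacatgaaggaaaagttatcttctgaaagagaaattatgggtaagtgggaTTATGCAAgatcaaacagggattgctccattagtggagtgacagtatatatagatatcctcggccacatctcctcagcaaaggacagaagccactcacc
*Lcn2* (chr2:32387740-32387989, minus strand): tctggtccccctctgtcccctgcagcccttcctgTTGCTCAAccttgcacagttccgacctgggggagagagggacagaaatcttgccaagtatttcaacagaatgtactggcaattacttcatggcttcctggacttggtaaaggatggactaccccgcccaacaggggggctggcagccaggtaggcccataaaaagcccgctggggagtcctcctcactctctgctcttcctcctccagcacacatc
*Isg15* (chr4:156200819-156201068, minus strand): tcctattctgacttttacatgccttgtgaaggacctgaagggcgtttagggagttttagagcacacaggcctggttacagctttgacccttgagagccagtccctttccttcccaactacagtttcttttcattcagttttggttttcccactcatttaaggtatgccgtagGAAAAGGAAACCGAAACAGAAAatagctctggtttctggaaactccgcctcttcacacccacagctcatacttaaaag
*Ifit1* (chr19:34640639-34640888, plus strand): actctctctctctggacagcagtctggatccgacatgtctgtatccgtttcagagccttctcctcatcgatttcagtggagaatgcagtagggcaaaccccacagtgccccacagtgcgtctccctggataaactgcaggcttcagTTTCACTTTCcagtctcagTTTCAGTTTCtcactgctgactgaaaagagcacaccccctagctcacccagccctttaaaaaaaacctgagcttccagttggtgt
The C/EBP match begins 99 bases before the start in *Saa3* and 216 bases before it in *Lcn2*. RefSeq promoters were found for 6 of the 8 acute-phase genes called higher, and 5 of the 6 (*Saa1*, *Saa3*, *Lcn2*, *Cp* and *Slpi*) held the C/EBP letters, which 10.8% of 27025 genes did. A κB-type motif, GGG and TTCC with any 3 bases between them, was in 0 of these 6 windows and in 5.31% of all. The ISRE letters were in 1 of them, that of *Saa3*, and in 3.46% of all. A match of letters is a description of the sequence, not of a bound site.

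Among genes of NAD, arginine and itaconate metabolism, 4 were called higher. *Cd38* (chromosome 5, 43868553 to 43912375), a surface enzyme that breaks down NAD, had 254 and 436 CPM with medium BPD, 4.11, 20.4 and 6.88 CPM with saline and 26.9, 16.1 and 15.3 CPM with free R848. Both medium BPD tumors lay far above the highest saline tumor, and the log2 fold change was 4.83 ± 0.51 (edgeR adjusted p = 0.00191). Its relative *Bst1*, also an NAD-consuming surface enzyme, rose by 3.0 ± 0.34 (adjusted p = 0.0026), with 292 and 709.6 CPM against 62.3, 54.7 and 71.8 CPM. *Nos2*, the inducible nitric oxide synthase, had 211 and 454 CPM with medium BPD and 9.48, 19.7 and 41.8 CPM with saline, a log2 fold change of 3.89 ± 0.57 (adjusted p = 0.00784), and it was not called without medium BPD 2. *Irg1*, which makes the antimicrobial metabolite itaconate, rose by 1.49 (adjusted p = 0.0468) and lost its call without medium BPD 2, saline 1 or saline 2. Of the 16 tested genes of NAD, arginine and itaconate metabolism, these 4 (*Cd38*, *Bst1*, *Nos2* and *Irg1*) were called higher and 0 lower, against 4.02% of all genes tested called higher, with a median of 0.35 beside -0.02 over all genes.

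*Fpr1* and *Fpr2*, receptors for the formylated peptides that bacteria and dying cells release, had log2 fold changes of 4.38 ± 0.25 and 2.49 ± 0.36 (edgeR adjusted p = 9.93e-05 and 0.00784). *Fpr1* was even across tumors, with 141 and 130.0 CPM with medium BPD, 5.06, 8.57 and 3.93 CPM with saline and 16.8, 12.0 and 14.8 CPM with free R848. *Procr*, the receptor of protein C, rose by 2.63, and *C3ar1* and *Tlr1*, receptors of a complement fragment and of bacterial lipopeptides, rose by 0.87 and 0.92. In contrast, *Tlr2*, the partner of *Tlr1*, fell by 1.58 ± 0.25 and *Clec5a*, a myeloid activating receptor, by 2.40 ± 0.36 on the log2 scale. This list of 24 tested chemoattractant and pattern receptors thus split into 5 called higher and 2 lower, against 4.02% and 3.12% of all genes tested, with a median of -0.19.

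Among the scavenger and efferocytosis receptors, *Marco* rose and several receptors for dying cells fell. *Marco*, a scavenger receptor for bacteria, had 84.8 and 139 CPM with medium BPD, 0, 0.245 and 1.97 CPM with saline and 0.259, 0.244 and 0.509 CPM with free R848 (log2 fold change over saline 7.81 ± 0.53, edgeR adjusted p = 0.000273). Its UMIs came from few cells, 30 of 573 and 28 of 423 macrophages, with up to 96 and 121 UMIs in 1 cell. *Axl*, which binds bridging proteins on dying cells, stood at 124 and 125 CPM against 371, 353 and 341 CPM with saline and fell by 1.51 ± 0.14 on the log2 scale (adjusted p = 0.000957). *Trem2*, a lipid receptor, and *Itgav*, an integrin chain, fell by 1.27 and 0.89. *Cd163*, the haptoglobin-hemoglobin receptor, rose by 5.03, yet its UMIs lay in 8 of 573 and 32 of 423 cells, and the call was lost without medium BPD 2 or any saline tumor. Of 18 genes tested on this list, 2 were called higher and 3 lower, against 4.02% and 3.12% of all genes tested.

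Among called genes whose groups did not overlap and whose mean log2 CPM was 4 or more, the largest fall was that of *Plau* (chromosome 14, 20836660 to 20843385), the urokinase that activates plasminogen. It had 21.3 and 32.8 CPM with medium BPD, 389, 203 and 418 CPM with saline and 82.6, 139 and 123 CPM with free R848. The log2 fold change over saline was -3.66 ± 0.40 (edgeR adjusted p = 0.00212), and the adjusted p against free R848 was 0.042. *S100a4*, a calcium-binding protein of motile cells, had 36.8 and 33.6 CPM against 429, 155 and 746 CPM (-3.64 ± 0.59, adjusted p = 0.0117), and *Fn1*, which encodes fibronectin, had 70.1 and 119 CPM against 1159, 174 and 701 CPM (-2.85 ± 0.67, adjusted p = 0.0387). The other genes among the 10 largest falls above this limit were *Angptl2* (-2.62), *Ighm* (-2.57), *Sulf2* (-2.55), *Clec5a*, *Nes* (-2.32), *Syne3* (-2.28) and *Grasp* (-2.27). Of these 10, only *Plau* was called whichever 1 of the 5 tumors was left out, whereas *Saa3*, *Cd38*, *Mmp8*, *Hp*, *Fpr1*, *Ccl5*, *Tmem176a* and *Dtx2*, all among the 10 largest rises above the same limit, were. *Nos2*, also among these, was not. *S100a4* lost its call without either medium BPD tumor, and *Fn1* without either of them or without saline 1 or saline 3.

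Genes of the monocyte list, which holds markers of classical and of patrolling monocytes, moved in both directions. *Ms4a4c* and *Ms4a6c* rose by 1.05 and 0.92, while *S100a4*, *S100a6*, *Fn1* and *Nr4a1* fell by 3.64, 1.24, 2.85 and 1.5. Of 20 monocyte genes tested, 3 were called higher and 4 lower, against 4.02% and 3.12% of all genes tested, with a median of -0.21. *Plin2*, which coats lipid droplets, rose by 1.86 ± 0.23 (adjusted p = 0.00422) on a list of lipid-associated macrophage genes that had 2 of 19 called higher and 1 lower.

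**Figure D2:**
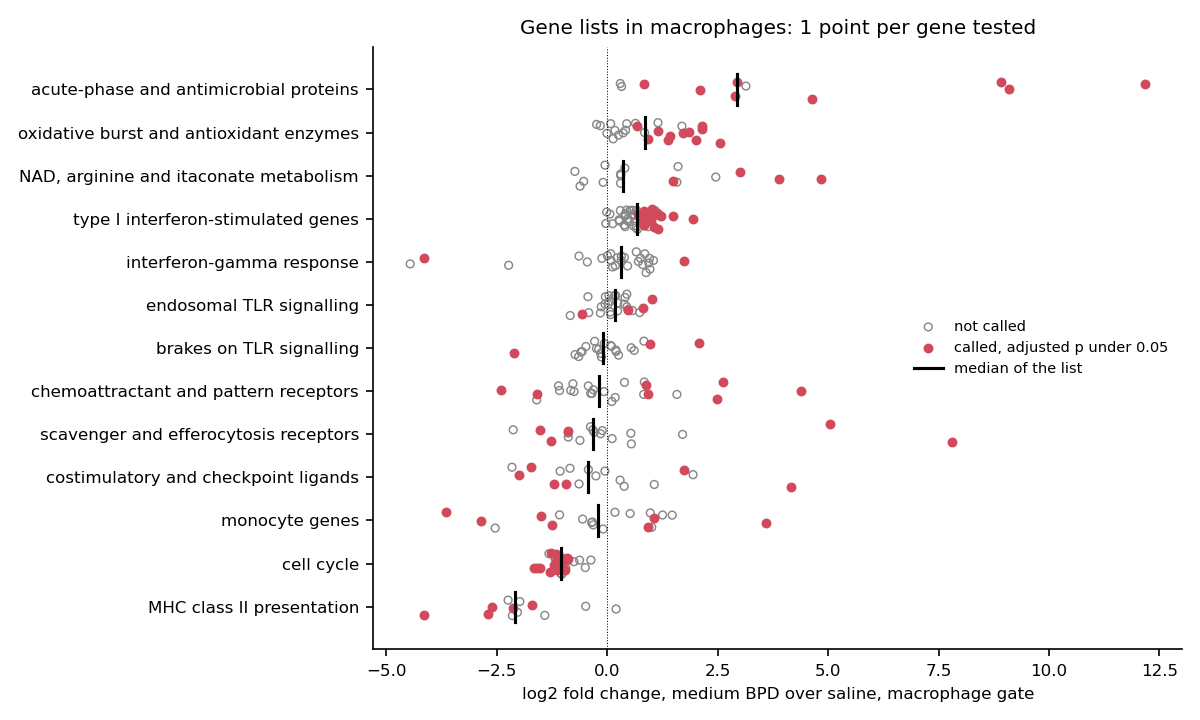
Log2 fold change of medium BPD over saline in the macrophage gate (x axis) for the tested members of 13 gene lists, with 1 point per gene, filled where the adjusted p was under 0.05, and a bar at each list's median. The median lies at 2.92 for acute-phase genes, 0.84 for antioxidant enzymes, 0.67 for ISGs, -1.05 for cell cycle genes and -2.09 for MHC class II genes.

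Antioxidant enzymes were another group with many rises. *Gclm* and *Gclc*, the subunits of the enzyme that starts glutathione synthesis, rose by 2.15 ± 0.17 and 1.43 ± 0.26, and *Gsr*, which regenerates glutathione, by 2.02 ± 0.17 (edgeR adjusted p = 0.000505, 0.0174 and 0.000669). *Gclm* had 125 and 166 CPM with medium BPD and 28.4, 33.5 and 35.9 CPM with saline, and *Gsr* had 125 and 152 CPM and 30.7, 35.4 and 35.9 CPM, so the saline tumors lay close together in both genes. *Sod2*, the mitochondrial superoxide dismutase, rose from 113, 98.3 and 144 CPM to 429 and 609.5 CPM (2.14 ± 0.20, adjusted p = 0.000955). The peroxiredoxins *Prdx6*, *Prdx1* and *Prdx5* rose by 1.71, 1.15 and 0.92, sulfiredoxin (*Srxn1*) by 1.37, heme oxygenase (*Hmox1*) by 2.54, metallothionein 2 (*Mt2*) by 1.84 and catalase (*Cat*) by 0.68. These 11 of 25 tested genes of the oxidative burst and antioxidant list were called higher and 0 lower, against 4.02% of all genes tested called higher, and the median of the 25 was 0.84 beside -0.02 over all genes. The count was 5 without saline 1, 6 without medium BPD 2 and 4 with only the medium BPD and saline tumors in the fit, where 1.47%, 1.03% and 0.942% of all genes were called higher. Of the 7 called genes with a RefSeq promoter, 3 (*Prdx1*, *Gclm* and *Mt2*) held TGACNNNGC, an antioxidant-response-type motif found in 11.5% of all genes' windows.

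Of this list, 6 genes were also higher than in free R848 macrophages, as were 5 of the tested acute-phase genes and 3 of the NAD, arginine and itaconate genes. Both contrasts share the medium BPD tumors. *Gclm* was at 41.4, 53.3 and 44.3 CPM and *Sod2* at 142, 125 and 140.1 CPM with free R848 (adjusted p of medium BPD against free R848 0.00386 and 0.00386). Over the whole macrophage gate, 98 of 10774 genes (0.91%) were called between medium BPD and free R848, 78 of them (0.724% of the genes tested) higher with medium BPD.

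ISGs rose by less. *Rsad2*, the antiviral enzyme viperin, had 1054 and 1959 CPM with medium BPD and 526, 398 and 683 CPM with saline, a log2 fold change of 1.49 ± 0.32 (edgeR adjusted p = 0.0281). *Ifit1*, which binds viral RNA, had 296 and 464 CPM against 153, 133 and 241 CPM (1.12 ± 0.28, adjusted p = 0.048). The ubiquitin-like modifier *Isg15* had 256 and 469.6 CPM against 193, 124 and 168 CPM (1.16 ± 0.30, adjusted p = 0.0489). The groups did not overlap in these 3 genes, but medium BPD 1 lay closer to the saline tumors than medium BPD 2 did. *Irf7*, the factor through which TLR7 induces interferon, had 1132 and 1635 CPM against 961, 769.7 and 1068 CPM and was not called (0.57 ± 0.23, adjusted p = 0.17). Of 50 ISGs tested, 18 were called higher and 0 lower, against 4.02% of all genes tested called higher, 48 had a log2 fold change above 0, and the median was 0.67.

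This result rested on single tumors. Counts were 0 in edgeR's test without medium BPD 2, without saline 1 and with only the medium BPD and saline tumors in the fit (17, 34 and 36 of the 50 at an unadjusted p under 0.05, where 8.07%, 10.2% and 10.4% of all genes were higher), and 3 to 8 were called without 1 of the free R848 tumors, while 21 were called without medium BPD 1 and 29 by DESeq2 (2.42% and 4.55% of all genes). The median of the list was 0.43 to 0.89 over the fits without 1 of the 5 tumors. Free R848 macrophages had an ISG median of 0.49 over saline, with all 50 genes above 0, and *Isg15* stood there at 248, 329 and 409.5 CPM. The median between medium BPD and free R848 was 0.13. RefSeq promoters were found for 15 of the 18 called ISGs, and 10 of these held the ISRE letters, against 3.46% of all genes. In *Isg15* the matches begin 78, 72 and 66 bases before the start, and in *Ifit1* 104 and 85 bases before it.

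The called genes of the receptor pathway itself changed by small amounts. *Tlr7* had 93.8 and 105 CPM with medium BPD and 70.2, 76.8 and 68.3 CPM with saline (0.46 ± 0.12, edgeR adjusted p = 0.0494), a call that was lost when any of 4 tumors, all but saline 2, was left out. *Tlr13*, a sensor of bacterial ribosomal RNA, rose by 0.81, and *Ikbkg*, a subunit of the kinase that activates NF-κB, by 1.00, while *Nfkb1* fell by 0.58. These were 3 genes higher and 1 lower of 27 tested for endosomal TLR signaling, against 4.02% and 3.12% of all genes tested, with a median of 0.17 beside -0.02 over all genes. Among 22 tested genes that restrain TLR signaling, *Irak3*, a pseudokinase that blocks MyD88 signaling, rose from 31.6, 29.5 and 45.2 CPM to 157 and 136 CPM (2.08 ± 0.18, adjusted p = 0.000706). *Bcl3* rose by 0.96 and *Nfkbid* fell by 2.12.

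The inflammatory cytokine list had 1 call in the macrophage gate. *Il1b* had 1637 and 1374 CPM with medium BPD and 4166, 1679.9 and 3407 CPM with saline (-1.03 ± 0.35, edgeR adjusted p = 0.107), and *Tnf* had 128 and 145 CPM and 239, 177 and 523 CPM (-1.19 ± 0.40, adjusted p = 0.11). Neither was called, and in both every medium BPD tumor lay below every saline tumor. Of 23 cytokine genes tested, only *Ebi3*, a subunit of heterodimeric interleukins, was called, at 0.83, which is 1 gene higher and 0 lower where 4.02% and 3.12% of all genes were. Of 22 chemokine genes, *Ccl5*, which attracts T and NK cells, rose from 54.0, 133 and 122 CPM to 1114 and 1060.4 CPM (3.4 ± 0.34, adjusted p = 0.00142) and *Xcl1* fell by 3.21. In the NK gate *Xcl1* fell by 3.11, and the part of NK cell RNA in its macrophage value was not tested. *Ccl5* stood at 426, 503 and 331 CPM with free R848, and the adjusted p between the treatments was 0.0923. *Cxcl9*, induced by interferon-γ, followed saline tumor 2 and not the groups, with 35.6 and 73.5 CPM with medium BPD and 17.7, 702 and 19.2 CPM with saline (adjusted p = 0.428).

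Ligands that act on T cells moved in both directions. *Cd274*, which encodes PD-L1, rose from 90.1, 136 and 134 CPM to 346 and 456 CPM (1.74 ± 0.28, edgeR adjusted p = 0.0126), and *Cd200*, an inhibitory ligand, from 2.53, 0.979 and 1.48 CPM to 28.4 and 26.2 CPM (4.15 ± 0.43, adjusted p = 0.00172). The costimulatory ligand *Cd86* fell from 219, 151 and 189 CPM to 88.0 and 73.1 CPM (-1.20 ± 0.20, adjusted p = 0.0134). *Icosl* and *Tnfsf8*, ligands of the costimulatory receptors ICOS and CD30, and *Havcr2*, which encodes TIM-3, fell by 1.72, 2.0 and 0.94. Of 17 genes tested on this list, 2 were called higher and 4 lower, against 4.02% and 3.12% of all genes tested. *Cd274* and *Cd86* lost their calls without medium BPD 2.

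MHC class II genes, whose products present antigen to CD4 T cells, were lower with medium BPD. Over all cells, *H2-Ab1* had 475 and 383 CPM with medium BPD, 2437, 3991 and 1885 CPM with saline and 1066, 946 and 1712 CPM with free R848 (log2 fold change over saline -2.69 ± 0.40, edgeR adjusted p = 0.0395). *Cd74*, the invariant chain, fell by 2.60, *H2-Aa* by 2.49, *H2-Eb1* by 2.43, and the peptide loaders *H2-DMa* and *H2-DMb1* by 2.17 and 2.11. These were 6 of 12 genes tested called lower and 0 higher, against 0.0999% of all genes called lower, with a median of -2.46 beside 0.03 over all genes. Each of the 6 lost its call without medium BPD 2 and without saline 1. Markers of conventional DCs, which are rich in MHC class II, summed to 105 and 50.8 CPM over all cells with medium BPD and to 242, 94.4 and 165 CPM with saline. Fewer MHC class II-rich cells and less RNA per cell cannot be told apart in these sums.

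Within the macrophage gate, 5 of 12 MHC class II genes were called lower and 0 higher, against 3.12% of all genes called lower, and the median was -2.09. The summed conventional DC markers in this gate were 67.2 and 58.0 CPM with medium BPD and 130, 117 and 124 CPM with saline, and their part in these values was not tested. *Ciita*, the master activator of these genes, had 1.41 and 0.415 CPM with medium BPD and 15.5, 32.1 and 6.39 CPM with saline (-4.14 ± 0.90, edgeR adjusted p = 0.0309). *H2-DMa* fell from 275, 352 and 173 CPM to 80.3 and 83.5 CPM (-1.71 ± 0.27, adjusted p = 0.0112), and the low-abundance *H2-DMb2*, *H2-Oa* and *H2-Ob* fell by 2.14, 2.61 and 2.70. The abundant *H2-Ab1* was not called (-2.03 ± 0.67, adjusted p = 0.102). It stood at 1917, 5510.5 and 1118 CPM with saline and 509.6 and 884 CPM with medium BPD, so that the saline tumors spread widely while both medium BPD tumors lay below all of them. The list had 0 calls by edgeR without medium BPD 1, without medium BPD 2 and with only these groups in the fit (7, 10 and 10 lower at an unadjusted p under 0.05, where 9.73%, 7.22% and 10.5% of all genes were). It had 7 by DESeq2, 2 without saline 1 and 9 without saline 3, where 3.94%, 0.699% and 2.97% of all genes were called lower. In the NK, T cell, mature DC and tumor-cell gates the median of the list was -1.33, -1.35, -1.78 and -2.48, with 0 genes called in each.

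**Figure D3:**
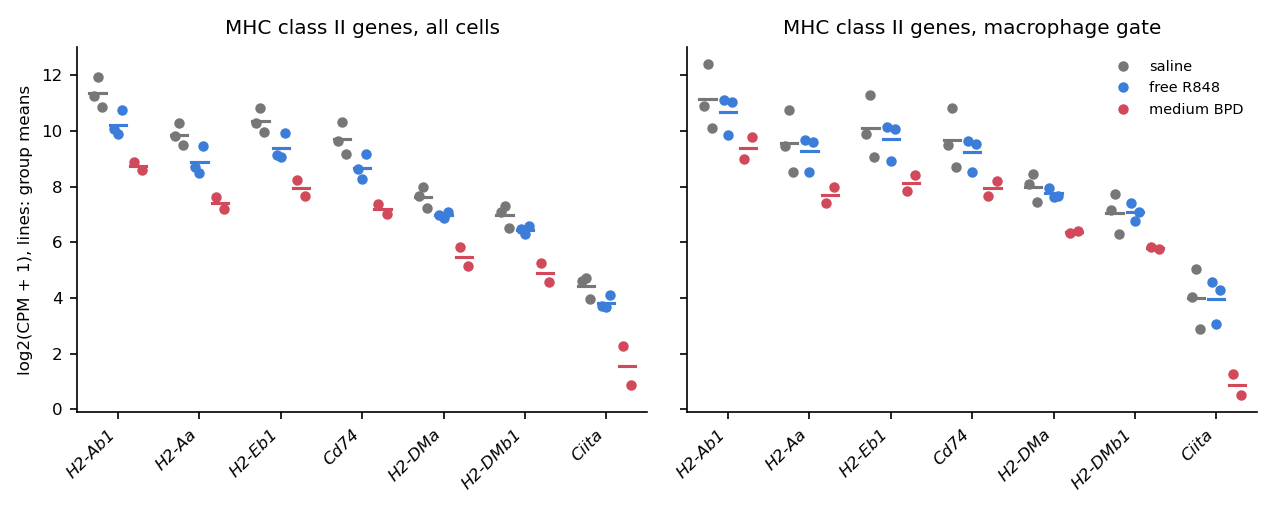
Level of 7 MHC class II genes per tumor as log2 of CPM plus 1 (y axis), over all cells (left) and in the macrophage gate (right), with 1 point per tumor and a line at each group mean. Both medium BPD tumors lie below all saline tumors for each of the 7 genes in either panel, and saline tumor 2 is the highest for most of them.

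Cell cycle genes were also lower in the macrophage gate. *Mcm6*, a subunit of the replicative helicase, had 68.9 and 82.6 CPM with medium BPD and 158, 181 and 152 CPM with saline (-1.12 ± 0.16, edgeR adjusted p = 0.00737), and it was called whichever 1 of the 5 tumors was left out. *Mki67*, the marker of dividing cells, fell from 388, 558 and 363 CPM to 242 and 134 CPM (-1.21 ± 0.31, adjusted p = 0.0499). Of 31 genes tested, 16 were called lower and 0 higher, against 3.12% of all genes tested called lower, all 31 had a log2 fold change below 0, and the median was -1.05. Only 1 gene was called without medium BPD 2, 5 without saline 1, 7 to 9 without 1 of the free R848 tumors and 2 with only the medium BPD and saline tumors in the fit, where 0.168%, 0.699%, 1.47% to 1.8% and 0.337% of all genes were called lower. The free R848 tumors had a median of -0.71 over saline for these genes.

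The calls of the remaining lists in the macrophage gate stand beside 4.02% of all genes called higher and 3.12% lower. MHC class I presentation had 1 of 21 tested genes called higher and 0 lower, the interferon-γ response 1 higher (*Cd274*) and 1 lower (*Ciita*) of 27, and dendritic cell maturation 3 higher and 2 lower of 22. Cytotoxic effectors had 2 higher and 1 lower of 20, lymphocyte receptors 2 higher and 1 lower of 22, hypoxia and glycolysis 1 higher and 2 lower of 25, collagen and matrix 1 higher and 2 lower of 19, and immediate-early genes 0 higher and 1 lower of 22.

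The share of macrophages with at least 1 UMI of a gene was compared after thinning every cell to 1000 UMIs, since depth differed between tumors. *Saa3* was then found in 65.6% ± 4.18 (SD, n = 2) of medium BPD macrophages and in 0.288% ± 0.308 (n = 3) of saline macrophages. *Cd38* was found in 25.2% ± 5.09 against 0.835% ± 0.661, *Lcn2* in 25% ± 1.77 against 0%, *Nos2* in 18.7% ± 1.70 against 2.17% ± 1.71 and *Hp* in 8.97% ± 0.349 against 0.842% ± 0.362. *Marco* was found in 2.82% ± 1.03 against 0.0840% ± 0.145. *Il1b* was found in 39.1% ± 6.86 against 58.6% ± 10.9. For all of these genes but *Il1b* the two-sided exact permutation p was 0.1, the smallest that 2 against 3 tumors allow, and for *Il1b* it was 0.2.

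For comparison, after the same thinning *Saa3* was found in 7.79% and 24.5% of the cells of the medium BPD NK gates, 14.5% and 30.2% of the T cell gates and 12.4% and 10.9% of the tumor-cell gates. *Marco* was found in 0% of the NK, T and tumor-cell gates. With medium BPD, *Lcn2* was found in 2.46% and 11.3% (NK), 1.45% and 16.3% (T) and 3.27% and 1.24% (tumor cells). In the same order, *Nos2* was found in 0% and 5.66%, 2.9% and 16.3%, and 3.92% and 1.24%. *Cd38* was found in 3.69% and 3.77%, 4.35% and 6.98%, and 2.61% and 0.746%. *Hp* was found in 0.82% and 3.77%, 1.45% and 13.95%, and 0.654% and 0%. The *Hp* share in the T cell gate of medium BPD 2 was above the 9.22% of its macrophages. The median depth before thinning was 7151 and 4840 UMIs in the macrophages, 7662 and 5673 in the NK cells and 6102 and 5719 in the T cells.

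**Figure D4:**
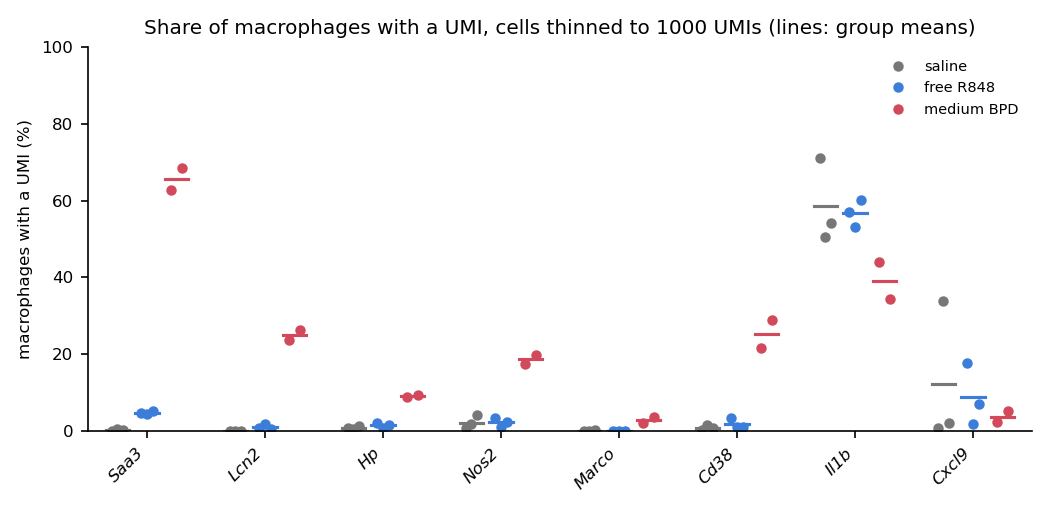
Share of macrophages with at least 1 UMI of each of 8 genes (y axis, percent) after thinning every cell to 1000 UMIs, with 1 point per tumor and a line at each group mean. *Saa3* lies at 62.7% and 68.6% in the medium BPD tumors and below 1% in the saline tumors, while *Il1b* is lower with medium BPD and *Cxcl9* is high only in saline tumor 2 and free R848 tumor 1.

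Among the 5 gated classes, the shares of medium BPD and saline tumors did not overlap for mature DCs and overlapped for the other 4. Mature DCs made up 7.78% and 6.22% of the cells outside the tumor gate with medium BPD, 2.64%, 0.511% and 1.68% with saline and 3.38%, 3.14% and 4.41% with free R848. The means were 7.0% ± 1.10 (SD, n = 2) and 1.61% ± 1.07 (n = 3) for medium BPD and saline, and the two-sided exact permutation p was 0.1, the smallest possible. The groups overlapped for macrophages (48.1% ± 2.69 against 49.6% ± 25.3), NK cells (12.9% ± 9.82 against 12.3% ± 1.93), T cells (8.33% ± 4.37 against 5.82% ± 0.607) and, among all kept cells, tumor cells (22.1% ± 15.3 against 12.1% ± 6.40). The medium BPD tumors themselves differed here, with 11.2% and 32.9% tumor cells. Cell types without a gate were followed by their summed markers over all cells. Those of neutrophils were 377 and 399 CPM with medium BPD and 53.0, 27.2 and 86.7 CPM with saline, and those of fibroblasts 1786 and 2064 CPM against 660.3, 356 and 535 CPM, so that the groups did not overlap in either.

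The genes of the mature DC gate were compared over the 2 medium BPD tumors and saline tumors 1 and 3, because saline tumor 2 held only 7 such cells. *Ccl22*, a chemokine that attracts regulatory T cells, fell from 3675 and 4232 CPM to 630.3 and 459 CPM (-2.85 ± 0.42, edgeR adjusted p = 0.0089), and it stood at 1572, 1258 and 3631 CPM with free R848. The membrane-bound chemokine *Cx3cl1* fell from 100.1 and 118 CPM to 3.07 and 0 CPM (-5.34 ± 0.76, adjusted p = 0.0089) and *Lad1* by 3.60. *Sqle* and *Hmgcs1*, enzymes of cholesterol synthesis, fell by 2.33 and 1.92. *S100a9*, *S100a8* and *Lcn2* had no UMI in the mature DCs of these saline tumors and 226, 179 and 123 with medium BPD, at least 21.9-fold, 17.4-fold and 11.9-fold higher against a floor of 3 counts over the group, in a gate where the summed neutrophil markers were 493 and 885 CPM with medium BPD and 4.95 and 11.9 CPM with saline 1 and 3. The part of neutrophil RNA was not tested. *Dll4*, a ligand of Notch receptors, had no UMI in the saline tumors and 145 with medium BPD, at least 14.1-fold higher (adjusted p = 0.016). *Il12b*, the interleukin-12 subunit by which mature DCs drive T helper 1 cells, had 849 and 939 CPM against 1289.9 and 2769 CPM and was not called (adjusted p = 0.388). Of the 10 genes with the largest changes among those with a mean log2 CPM of 4 or more, only *Saa3* was called whichever of the 4 tumors was left out, and the calls of *Dll4* and *Ccl22* were lost without either saline tumor. *Gzmb* and *Prf1*, which belong to NK and T cells, were also called higher in this gate (log2 fold changes 4.29 and 3.77), and *Gzma* had 1 UMI in all with saline (ratio 101, 95% counting interval 18.1 to 4012). In the same gate the summed NK markers were 173 and 109 CPM with medium BPD and 89.1 and 35.6 CPM with saline 1 and 3, and the part of NK cell RNA was not tested. The count of 20 calls was 1 without saline 1, 4 without saline 3 and 7 with only the medium BPD and saline tumors in the fit.

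In the NK gate, the cytotoxic protease *Gzmb* rose from 4406, 4847 and 4417 CPM to 12668 and 7793 CPM (1.17 ± 0.18, edgeR adjusted p = 0.0277). *Ccl5* rose from 48.8, 78.5 and 70.2 CPM to 221 and 649 CPM (2.68 ± 0.39, adjusted p = 0.02), and *Il12rb1*, a chain of the interleukin-12 receptor, from 70.8, 82.8 and 66.3 CPM to 171 and 162 CPM (1.19 ± 0.16, adjusted p = 0.02). *Serpine2*, a protease inhibitor, *AA467197* and the transcription factor *Batf3* rose by 2.07, 1.94 and 2.76. The summed mature DC markers in the NK gate were 261 and 377 CPM with medium BPD and 168, 122 and 152 CPM with saline, those of neutrophils were 101 and 86.3 CPM against 10.5, 22.5 and 7.84 CPM, and their part in these values was not tested. *Xcl1*, the chemokine with which NK cells attract type 1 DCs, fell from 845, 646 and 375 CPM to 85.4 and 47.1 CPM (-3.11 ± 0.39, adjusted p = 0.0163), and *S100a4*, *Nrgn* and the phosphatase *Ptpn6* fell by 2.07, 1.99 and 1.10. *Ifng* and perforin (*Prf1*) were not called (log2 fold changes -0.35 and 0.86). *Ccl5*, *Il12rb1*, *Serpine2*, *AA467197*, *Xcl1*, *S100a4*, *Nrgn* and *Ptpn6* each lost their call in at least 1 fit that left out a tumor. The count of 14 calls was 116 without medium BPD 1, 9 without saline 2 or free R848 2, 2 without saline 3 or free R848 3 and 1 without saline 1.

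In the T cell gate *Ccl5* rose from 165, 325 and 179.7 CPM to 839.5 and 1428 CPM (2.32 ± 0.31, edgeR adjusted p = 0.0149). *Il4i1*, which encodes a myeloid enzyme that consumes aromatic amino acids, and *Tbc1d4* rose by 4.07 and 3.14. *Lpl*, which encodes lipoprotein lipase, and *Axl* fell by 4.51 and 1.91. Of the T cell gate, 14.1% of the cells also passed the macrophage gate, and the summed macrophage markers there were 2182 and 3745 CPM with medium BPD and 2435 to 7553 CPM with saline. The NK gate was passed by 26.1% and the mature DC gate by 4.02% of its cells. Summed mature DC markers, which include *Il4i1*, were 1098 and 904 CPM in the T cell gate with medium BPD and 395, 322 and 371 CPM with saline. Those of neutrophils were 45.5 and 1127 CPM against 2.19, 16.4 and 11.5 CPM, and those of osteoclasts 343 and 390 CPM against 50.5, 223 and 76.4 CPM. The part of mature DC, NK cell, neutrophil and osteoclast RNA was not tested. *Ccl5* had an adjusted p of 0.0775 when cells in more than 1 gate were left out, and a single gene, *Saa3*, was then called in the T cell gate. The count of 10 calls was 40 without medium BPD 1, 18 without saline 3, 6 without medium BPD 2 or free R848 1 and 1 without saline 1.

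*Saa3* was called higher in every gate. It had no UMI in the saline NK, T and mature DC gates, and its levels with medium BPD were 386 and 1292, 2076 and 3480.0 and 1262 and 2459 CPM, at least 537-fold, 917-fold and 144-fold higher against a floor of 3 counts over the saline group (edgeR adjusted p = 0.00163, 0.00198 and 0.000425). In the tumor-cell gate it rose from 6.99, 0.699 and 1.21 CPM to 604 and 377 CPM (7.39 ± 0.49, adjusted p = 0.00022). These levels were below that in the macrophage gate of the same tumor, and macrophage markers were present in these gates too. In the NK gates *Saa3* was at 4.30% and 8.98% of the macrophage level and the macrophage markers at 2.38% and 15.6%. In the T cell gates *Saa3* was at 22.9% and 22.5% and the markers at 10.2% and 20.6%, and in the tumor-cell gates the values were 6.84% and 2.54% for *Saa3* and 8.74% and 1.41% for the markers. In the mature DC gates *Saa3* was at 13.4% and 15.7% and the markers at 9.17% and 8.81%. Without cells in more than 1 gate, *Saa3* was at 0.765% and 5.22% in NK cells, 10.9% and 11% in T cells and 1.90% and 1.02% in tumor cells, with markers at 0.482% and 1.07%, 2.75% and 2.13%, and 0.546% and 0.388%. In mature DCs *Saa3* was then at 3.16% and 16.2% and the markers at 4.33% and 2.84%. The marker sums in this paragraph include the gate genes *C1qa*, *C1qb* and *C1qc*. A cell of 1 other gate alone holds under 5 UMIs of these genes, which lowers its marker percentage by construction. The percentages without cells in more than 1 gate therefore cannot be set against those of *Saa3*. The part of free or macrophage RNA in these levels was not tested. Of all *Saa3* UMIs of the medium BPD tumors, 67.2% lay in the macrophage gate and 30.2% in cells of no gate.

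Lipid synthesis genes were among those lower in tumor cells. *Scd1*, which makes monounsaturated fatty acids, fell from 250.1, 234 and 244 CPM to 103 and 98.4 CPM (-1.27 ± 0.13, edgeR adjusted p = 0.00765), and the free R848 tumors lay between at 151, 119 and 145 CPM. *Acss2*, which activates acetate, fell from 37.0, 34.0 and 37.5 CPM to 9.74 and 8.00 CPM (-2.03 ± 0.27, adjusted p = 0.0137), and *Fdps*, of cholesterol synthesis, from 162, 117 and 138 CPM to 64.4 and 57.8 CPM (-1.19 ± 0.16, adjusted p = 0.0153). A list of sterol and fatty acid synthesis genes was drawn up after these values had been seen and holds the 3 genes above, so its counts are a description and cannot be read against the share of all genes: 5 of its 32 genes (*Lss*, *Fdps*, *Acss2*, *Scd1* and *Fads1*) were called lower in tumor cells, where 0.101% of all genes were, and all 32 had a log2 fold change below 0, with a median of -0.80. In the mature DC gate 2 of 20 tested genes were called lower (0.132% of all genes) and all 20 were below 0, with a median of -1.58, and in macrophages 4 of 31 were called lower (among them *Scd2*, *Elovl6* and *Fads1*), where 3.12% of all genes were, with a median of -0.60. In NK and T cells the medians were -0.15 and -0.17.

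Other lists also leaned to 1 side in the tumor-cell gate. ISGs had a median of 0.62 beside 0.01 over all genes, with 48 of 50 above 0, and hypoxia and glycolysis genes a median of -0.50, with 23 of 24 below 0. In both lists edgeR called 0 genes, while 31 ISGs were higher and 18 hypoxia and glycolysis genes lower at an unadjusted p under 0.05 (5.02% of all genes higher and 6.08% lower), and DESeq2 called 12 and 8 (0.531% and 0.907% of all genes).

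*Fbln2*, a matrix protein, and *Sox2*, a stem cell factor, also fell in the tumor-cell gate, by 2.18 and 1.26. *Plk2*, a stress-induced kinase, *Filip1l*, *Lgals3*, which encodes galectin-3, and *Cpt1a*, which brings fatty acids into mitochondria, rose by 1.36, 1.19, 1.05 and 0.98. *Scd1* lost its call without saline 1, and *Acss2*, *Fdps*, *Fbln2*, *Sox2*, *Plk2*, *Filip1l*, *Lgals3* and *Cpt1a* lost theirs without saline 1 or saline 3. The count of 18 calls was 436 without medium BPD 1, 34 without medium BPD 2, 10 without free R848 2, 3 without saline 3 and 1 without saline 1.

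Over all cells, *Ccl5* had 1137 and 846 CPM with medium BPD, 146, 149 and 151 CPM with saline and 432, 425 and 468 CPM with free R848. Its log2 fold change over saline was 2.74 ± 0.15 (edgeR adjusted p = 0.000502). The free R848 tumors differed from both other groups (adjusted p = 0.0193 against saline and 0.044 against medium BPD). *Saa3*, *Cd38*, *Nos2*, *Bst1*, *Dtx2*, an E3 ubiquitin ligase, and *Fbxl5*, which controls iron balance, rose over all cells by 7.58, 3.88, 3.43, 2.23, 1.94 and 1.68. *Apod*, *Ly6c1* and *Procr* rose by 2.55, 2.53 and 1.72, alongside the higher fibroblast markers given above, whose part was not tested. *Plau* fell by 4.03 ± 0.30 (adjusted p = 0.00332), and *Amz1*, *Ptpro* and *Plk3* by 2.46, 2.15 and 1.05. Of the 20 genes with the largest changes among those with a mean log2 CPM of 4 or more, only *Ccl5* and *Plau* were called whichever 1 of the 5 tumors was left out, and the count of 65 calls ranged from 5 without saline 1 to 1101 without medium BPD 1, with 26, 34 and 28 without medium BPD 2, saline 2 and saline 3 and 13 to 22 without 1 of the free R848 tumors. Without the tumor-cell gate, 294 genes were called.

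The difference between classes was tested directly for macrophages against tumor, NK and T cells. Between macrophages and tumor cells, 25 of 11768 genes (0.212%) responded differently, among them *Gsr* (2.02 in macrophages, 0.12 in tumor cells) and *Gclm* (2.15 and 0.54). *Cd38* rose by 4.83 in macrophages and had values of 1.62 in NK and 2.02 in T cells, and the difference was called against both (edgeR adjusted p = 0.033 and 0.0489). Against NK cells 4 of 11049 genes (0.0362%) and against T cells 3 of 10809 (0.0278%) were called.

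**Figure D5:**
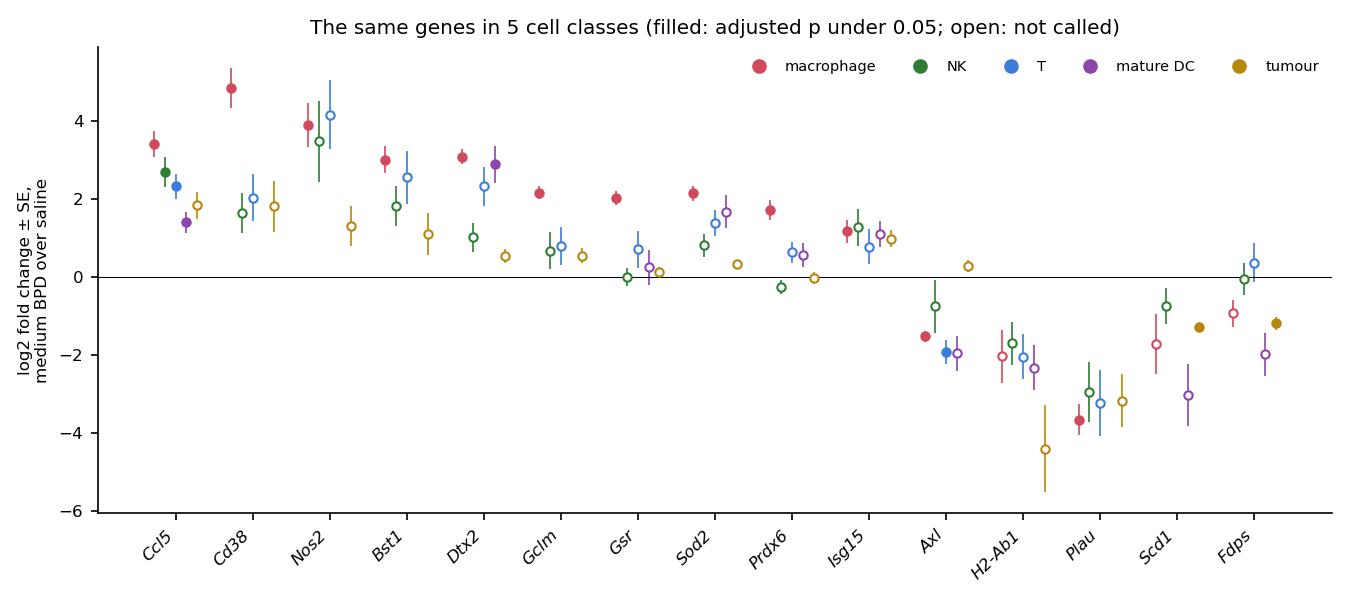
Log2 fold change of medium BPD over saline with its SE (y axis) for 15 genes in the 5 gated classes, with filled points where the adjusted p was under 0.05 and no point where a gene was not tested. *Ccl5* is filled in macrophages, NK cells, T cells and mature DCs, *Cd38*, *Gclm*, *Gsr*, *Sod2* and *Prdx6* only in macrophages, and *Scd1* and *Fdps* only in tumor cells.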

How the data were processed

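Single-cell libraries of 8 MC38 tumors were made by Seq-Well. The authors deposited a matrix of raw UMI counts per gene and cell for each tumor, 10791 barcodes and 24787 genes in all. Per the paper's methods and the labels, reads were aligned to mm10, and the aligner is not given in the sources used here. The labels name no sequencing batch.

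Of the barcodes, 9886 passed the limits on genes, UMIs and mitochondrial share. Counts were summed per tumor and gate, classes with fewer than 10 cells in a tumor were left out for that tumor, and genes of a gate were not tested in it. All 8 tumors entered each fit (edgeR 4.0.16 in R 4.3.3, quasi-likelihood, TMM scaling, filterByExpr, Benjamini-Hochberg adjusted p under 0.05). Replicates were separate mice. CPM are scaled by TMM except for summed markers, SE is that of the log2 fold change, and class responses were compared in a model with the tumor as a block. Shares were compared by exact permutation over tumors, after thinning to 1000 UMIs for single genes. No doublet caller was run, and fits without cells in more than 1 gate were made instead. Alternatives were DESeq2 1.42.0, other size factors, no filter, fewer groups or tumors, a replicate block, stricter or equal cells, other gates, other depths and, added after the data had been seen, leaving out barcodes found in more than 1 tumor.

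Named genes were those called, without overlap between the groups and at a mean log2 CPM no lower than 4: the 10 largest changes in each direction for all cells and macrophages and the 5 largest for the other gates, leaving out predicted and mitochondrial genes, plus members of 23 lists (570 genes, 10 matched by older symbols, 4 not listed). The gated groups, members and lists were chosen with earlier results of these data known. Some genes that meet this rule are not reported here. Genes with near-identical copies (*Saa1* and *Saa2*, *Fpr1* and *Fpr2*, *Ly6c1*, the *Ifit* and *H2* families) are uncertain where reads are shared. Positions are from GENCODE and promoters from RefSeq, both on GRCm38. Free R848 and medium BPD were compared with the same saline tumors.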

Additional observations from a re-analysis of the deposited data

Results flagged for a closer look

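For 11 pairs of a gene and a class, the response to medium BPD over saline differed between macrophages and another class in a test of the difference itself (edgeR, adjusted over all genes of that test). Against tumor cells, the macrophage response was higher on the log2 scale by 2.56 ± 0.28 (SE) for *Dtx2*, 1.63 ± 0.23 for *Gclm*, 1.90 ± 0.16 for *Gsr*, 1.83 ± 0.22 for *Sod2*, 1.72 ± 0.25 for *Prdx6* and 2.11 ± 0.24 for *Procr*. The difference was -2.31 ± 0.33 for *Grasp* and -1.79 ± 0.21 for *Axl*. Adjusted p was 0.00771 for *Gsr* and 0.019 to 0.0365 for the other 7 genes. Against NK cells the difference was 3.49 ± 0.44 for *Cd38* and 2.02 ± 0.26 for *Gsr* (adjusted p = 0.033 and 0.033). Against T cells it was 3.0 ± 0.45 for *Cd38* (adjusted p = 0.0489). With only the medium BPD and saline tumors in the fit, 0 genes were called in each of these 3 tests. Against tumor, NK and T cells, 1179, 719 and 741 genes then had an unadjusted p under 0.05. The main fits tested 11768, 11049 and 10809 genes.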

How the results depend on the processing

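Numbers of called genes moved more than directions did. The main counts were 65 (all cells), 769 (macrophages), 14 (NK), 10 (T), 20 (mature DCs) and 18 (tumor cells), and 25, 4 and 3 for the response of macrophages against tumor, NK and T cells. DESeq2 called 435 genes over all cells, 38 in NK, 32 in T and 157 in tumor cells. With no filter on low counts the counts were 490, 1765, 207, 261, 136 and 528, and 539, 225 and 176 for the differences in response. With only the medium BPD and saline tumors they were 4, 133, 0, 4, 7 and 3, and 0, 0 and 0. In that fit 461 NK genes had an unadjusted p under 0.05, beside 8991 tested in the main fit. That number is not read as a sign of change. With the same number of cells per tumor they were 486 (macrophages), 3 (T), 8 (mature DCs) and 4 (tumor cells), with doubled gate limits 4 (T), 42 (mature DCs) and 55 (tumor cells), and without cells in more than 1 gate 51 (NK), 1 (T) and 74 (tumor cells), and 247, 63 and 16 for the differences. Without the tumor-cell gate, all cells gave 294. Leaving out 1 tumor gave 5 to 1101 (all cells), 136 to 898 (macrophages), 1 to 116 (NK), 1 to 40 (T), 1 to 27 (mature DCs) and 1 to 436 (tumor cells), and 0 to 128, 0 to 14 and 0 to 8 for the differences. The cause of these changes was not tested.

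With the replicate number as a block the counts were 28, 493, 34, 33, 6 and 11. Deviations from the group means correlated at -0.222 to 0.375 between tumors of the same number, with the highest value between medium BPD 2 and saline 2. The deviations of the 2 medium BPD tumors mirror each other, so this cannot decide whether the numbers pair the tumors.

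The difference in the NK share (medium BPD minus saline, 0.610 percentage points) reversed to -0.163 without cells in more than 1 gate and -0.583 after thinning to 2000 UMIs. Leaving out 1 tumor, it ranged from -6.34 to 7.56, the T cell share from -0.571 to 5.61, the macrophage share from -9.81 to 13.1, the tumor-cell share from -0.810 to 20.8 and the mature DC share from 4.61 to 6.17. The mature DC difference of 5.39 points was 4.26 with doubled gate limits, 4.18 with the other denominator, and 3.92 after thinning to 2000 UMIs. The share of macrophages with a UMI differed by 34.7 (*Lcn2*), 11.8 (*Hp*), 22.7 (*Nos2*), 3.84 (*Marco*) and 39.9 points (*Cd38*) at 2000 UMIs, and unthinned by 78.1 (*Saa3*), 50.6, 22.6, 29.5, 5.78 and 60.9. *Hp* differed by 8.52 points without cells in more than 1 gate, and *Cxcl9* by -14.1 to 2.40 when 1 tumor was left out. With 2 against 3 tumors and few cells per tumor in the mature DC, T and NK gates, a gene that was not called there is not shown to be unchanged.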
